A study of Mus musculus with 6 samples.

Results

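The 42 genes described here encode the enzymes that make, interconvert, salvage and break down purine and pyrimidine nucleotides, together with the enzymes of the folate cycle and of serine synthesis that feed it. They were chosen by name, as the enzymes that supply and use GTP and the folate cycle, and were found by matching each Ensembl identifier, without its version, to GENCODE mouse release M21. All 42 had a row among the 12327 genes of the table, and all 42 passed the filter on low values that left 12222 genes for testing. RNA was sequenced from BV2 cells, an immortalised mouse microglial line, in 3 libraries labelled GCH1-KD and 3 labelled negative control. For 48 hours, GCH1-KD cells carried an adenovirus named Ad-shGCH1, which delivers a short hairpin RNA against GCH1. The negative control is named Ad-NC in the treatment text and wild type in the series text, and the labels do not make clear whether those cells received a virus. Both groups come from a single line, and nothing in the labels ties the 3 libraries of a group to separate cultures. The p-values therefore reflect the spread from library to library alone, which may be technical.

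GTP is made from inosine monophosphate (IMP), the end product of de novo purine synthesis, by way of xanthosine and guanosine monophosphate, and it is also recovered from guanine by salvage. GTP cyclohydrolase I, the enzyme encoded by Gch1, turns GTP into the precursor of tetrahydrobiopterin (BH4), the cofactor of nitric oxide synthases, which activated rodent microglia use to make nitric oxide. The folate cycle carries the single-carbon units, mostly taken from serine, that purine synthesis, thymidylate synthesis and the remaking of methionine consume. The comparison asked how RNA levels in these cells differed when Gch1 was knocked down, here for the enzymes upstream of GTP cyclohydrolase I and around it.

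Expression is given in FPKM, a level scaled to transcript length and library size, with 1 value per gene and library. Library sums lay between 224300 and 230300 FPKM in GCH1-KD and between 227800 and 229700 FPKM in negative control libraries. No counts were given, so depth was estimated from the step size of the values, as 6.32 to 7.61 Gb (gigabases) of aligned sequence in GCH1-KD libraries and 5.25 to 5.58 Gb in negative control libraries, which do not overlap. Among microglial markers, Csf1r was at 48.8 to 54.8 FPKM in GCH1-KD and 49.6 to 50.6 FPKM in negative control libraries, and Spi1 at 40.0 to 43.1 FPKM in GCH1-KD and 40.8 to 44.0 FPKM in negative control libraries. Cd68 was at 448.0 to 471.2 FPKM in GCH1-KD and 478.0 to 497.5 FPKM in negative control libraries, and Trem2 at 21.4 to 21.8 FPKM in GCH1-KD and 21.9 to 22.7 FPKM in negative control libraries. The groups of both stood apart without passing the test (limma adjusted p = 0.447 for Cd68 and 0.736 for Trem2), and their part in the results below was not tested. Itgam varied widely within groups, at 7.10 to 23.0 FPKM in GCH1-KD and 7.22 to 31.2 FPKM in negative control libraries. Cx3cr1 was at 0.43 to 0.54 FPKM in GCH1-KD libraries and reached 3.16 FPKM in negative control library 3, with 0.60 and 0.30 FPKM in the other negative control libraries. P2ry12 had no row, and Tmem119, like P2ry12 a marker of resting microglia in the brain, was at 0.528 to 0.689 FPKM in GCH1-KD and 0.489 to 0.652 FPKM in negative control libraries. Neuronal markers had no row (0 of 5), and astrocyte, oligodendrocyte, fibroblast and lymphocyte lists had 1 row each and the endothelial list 2. Some of these were not low. Aldoc of the astrocyte list averaged 25.6 FPKM in GCH1-KD and 27.0 FPKM in negative control libraries. The endothelial genes Flt1 and Vwf averaged 22.1 and 4.98 FPKM in GCH1-KD and 22.3 and 4.48 FPKM in negative control libraries. Cnp averaged 5.40 FPKM, Lck 0.73 FPKM and Acta2 0.52 FPKM in GCH1-KD libraries.

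The targeted gene fell in the libraries that carry its label. Gch1 was at 3.20, 2.93 and 3.43 FPKM in GCH1-KD libraries 1, 2 and 3, against 6.89, 7.22 and 7.23 FPKM in negative control libraries 1, 2 and 3. The groups did not overlap, and GCH1-KD stood at 44.8% of negative control. On the log2(FPKM + 1) scale the difference was -0.96 (SE 0.06, 95% interval -1.10 to -0.81), with a Benjamini-Hochberg (BH) adjusted p of 0.00542 in limma over all genes tested. The exact two-sided permutation test gave p = 0.1, the smallest that 3 libraries against 3 allow.

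Against that knockdown, 0 of the 42 genes passed the test, 0 higher and 0 lower in GCH1-KD. Among all 12222 genes tested 10 passed, which is 0.0818% (3 higher, 0.0245%, and 7 lower, 0.0573%). The count over all genes was 6 without GCH1-KD library 2 or 3 and 18 without negative control library 2, with 0 of the 42 called each time. The lowest adjusted p of the 42 was 0.387, for Cad, and the highest 0.996, for Mthfd1l. At an unadjusted limma p under 0.05 there were 3 of 42, Cad, Pfas and Gda, or 7.14%, beside 11.3% of all genes. The groups did not overlap for 7 of 42, or 16.7%, beside 18.4% of all genes. Of these, 3 were higher in GCH1-KD (Gda, Mtr and Atic; all genes 9.99%) and 4 lower (Cad, Pfas, Dhodh and Dck; all genes 8.36%). These shares lie near or under those of all genes.

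Set against the spread between these libraries, the intervals leave room for small differences only. Since that spread may be technical, they do not bound differences between separate cultures. Fitted log2 differences ran from -0.14 for Pfas to 0.17 for Psph, with 23 genes above and 19 below negative control and a median of 0.02, beside 0.01 for all genes. The 95% interval of every one of the 42 lay within a 1.5-fold change in either direction, as it did for 95.2% of all genes. For 40 of 42 (95.2%) it lay within 1.25-fold, beside 76.4% of all genes, a share not matched for level. The exceptions were Nme2, with an interval of -0.15 to 0.42, and Psph, with -0.05 to 0.39. The lower end that reached farthest was that of Tk1, at -0.27. These values and both fold bounds are on the log2(FPKM + 1) scale, which understates the change of weaker genes, among them Dhodh, Tyms, Ada, Tk1 and Pnp. In plain FPKM fewer than 40 of the intervals may therefore lie within 1.25-fold. Measured as a plain ratio of mean FPKM, GCH1-KD stood between 88.5% of negative control for Dhodh and 116% for Psph. Summed over the 42 genes, RNA came to 984.1 to 1028 FPKM in GCH1-KD and 983.3 to 996.0 FPKM in negative control libraries, which overlap.

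**Figure D1:**
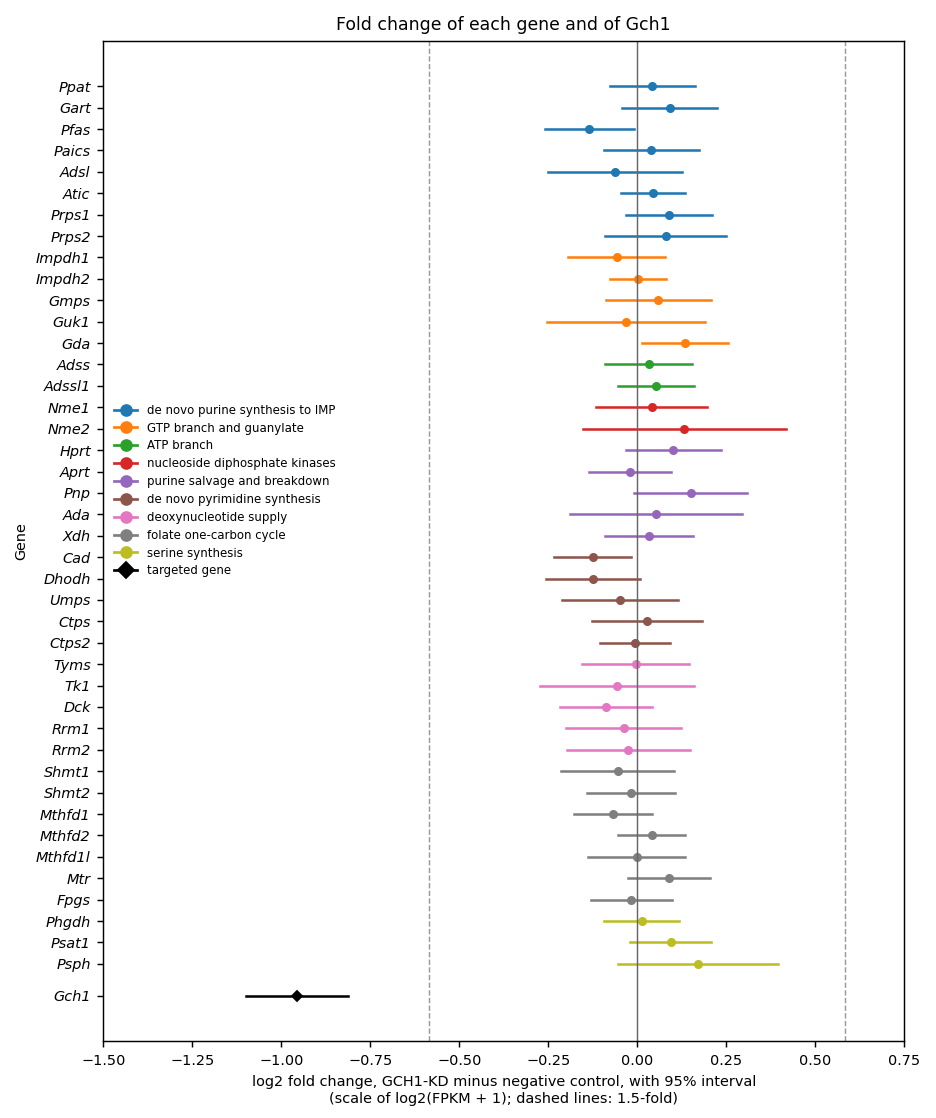
Log2 fold change of each of the 42 genes and of Gch1, GCH1-KD minus negative control on the log2(FPKM + 1) scale. Points are the limma estimates and lines their 95% intervals over 3 libraries a group, and colours mark roles. All 42 intervals lie between the dashed lines at a 1.5-fold change, while that of Gch1 lies wholly beyond the lower line, at -1.10 to -0.81.

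The enzymes were expressed over a wide range. Phgdh, which starts serine synthesis, was the most abundant, with a mean of 150.7 FPKM over the 6 libraries, above 98.7% of the genes in the table. Dhodh was the least abundant, at 2.42 FPKM and above 24.0% of genes. Multiplying FPKM by the estimated depth gives a mean coverage per transcript base of 762 to 1107 reads for Phgdh and of 13.2 to 16.5 for Dhodh, so the precision behind the 42 values differs widely. Within groups the 42 varied little: the coefficient of variation had a median of 4.68%, from 1.66% for Impdh2 to 13.8% for Ada, beside a median of 5.29% over the 9369 genes at or above the level of Dhodh.

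**Figure D2:**
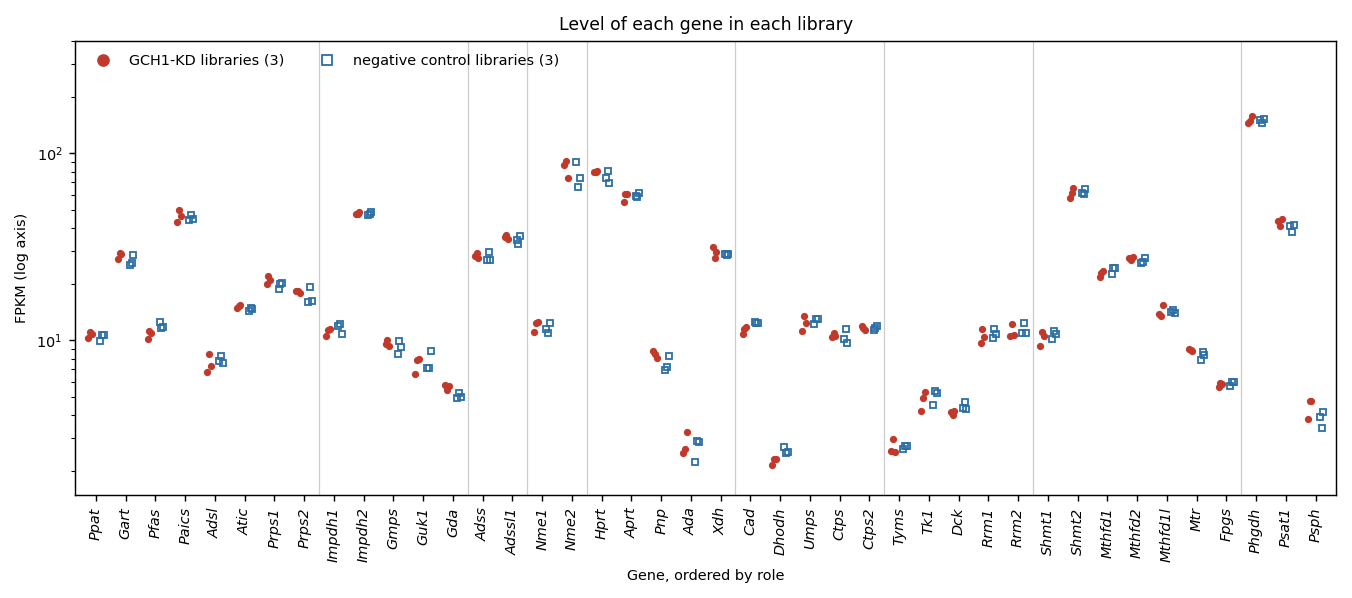
Expression of each of the 42 genes in each library, in FPKM on a log axis, ordered by role, with GCH1-KD libraries as filled circles and negative control libraries as open squares. Genes run from Phgdh at a mean of 150.7 FPKM to Dhodh at 2.42 FPKM, and the groups overlap in all but 7 of them.

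De novo purine synthesis begins with phosphoribosyl pyrophosphate, made by Prps1 and Prps2, and runs through Ppat, Gart, Pfas, Paics, Adsl and Atic to IMP. Of these 8 genes 0 passed the test, 6 lay above and 2 below negative control, and the median log2 difference was 0.04. Paics, which carries a carboxylation and the step after it, was the most abundant, at 43.1, 49.7 and 46.5 FPKM in GCH1-KD libraries, against 44.0, 46.7 and 44.6 FPKM in negative control libraries. The groups overlapped, with the lowest and the highest of the 6 values both in GCH1-KD. Ppat, the amidotransferase of the committed step, averaged 10.75 ± 0.42 FPKM in GCH1-KD and 10.41 ± 0.44 FPKM in negative control libraries (SD, n = 3 each). Gart, which adds the first folate-borne formyl group, averaged 28.47 ± 1.13 FPKM in GCH1-KD and 26.70 ± 1.79 FPKM in negative control libraries. Adsl, which splits off fumarate in this path and again on the way to AMP, averaged 7.50 ± 0.89 FPKM in GCH1-KD and 7.85 ± 0.36 FPKM in negative control libraries. For each of these 3 the difference was smaller than the SD of at least 1 group, and the lowest limma adjusted p was 0.563, for Gart. Prps1 and Prps2 had log2 differences of 0.09 (SE 0.05, adjusted p = 0.533) and 0.08 (SE 0.07, adjusted p = 0.696) by limma with BH adjustment.

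The pathway's 2 genes whose groups stood apart went in opposite directions. Pfas, which adds the amide nitrogen of glutamine to the growing ring (ENSMUSG00000020899.15, chr11:68985697-69008460, minus strand, GRCm38), was at 10.23, 11.28 and 10.96 FPKM in GCH1-KD libraries, against 12.57, 11.63 and 11.75 FPKM in negative control libraries. All 3 GCH1-KD libraries were below all 3 negative control libraries, narrowly at the nearest pair. The log2 difference was -0.14 (SE 0.05, unadjusted p = 0.0379, adjusted p = 0.408 by limma with BH adjustment). Atic, which adds the second folate-borne formyl group and closes the ring to IMP (ENSMUSG00000026192.13, chr1:71557150-71579631, plus strand), was at 14.92, 15.22 and 15.43 FPKM in GCH1-KD libraries, against 14.44, 14.89 and 14.81 FPKM in negative control libraries. The highest negative control library lay just under the lowest GCH1-KD library, and the log2 difference was 0.04 (SE 0.04, adjusted p = 0.689).

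The GTP branch leads from IMP to guanine nucleotides, the substrate pool of GTP cyclohydrolase I. Of its 5 genes 0 passed the test, with 3 above and 2 below negative control and a median log2 difference of 0.00. Impdh2, the main isozyme of the rate-limiting step from IMP to xanthosine monophosphate, was at 47.2, 47.7 and 48.5 FPKM in GCH1-KD libraries, against 47.1, 47.3 and 48.8 FPKM in negative control libraries. The 2 groups lay over each other, and its log2 difference of 0.00 (95% interval -0.08 to 0.08) was bounded most closely of the 42. Impdh1, the other isozyme, averaged 11.18 ± 0.49 FPKM in GCH1-KD and 11.68 ± 0.72 FPKM in negative control libraries. The ratio of Impdh2 to Impdh1 was 4.28 ± 0.15 in GCH1-KD and 4.10 ± 0.34 in negative control libraries, and the groups overlapped. Gmps, which aminates xanthosine monophosphate to GMP, averaged 9.65 ± 0.31 FPKM in GCH1-KD and 9.24 ± 0.75 FPKM in negative control libraries. Guk1, which phosphorylates GMP to GDP, averaged 7.50 ± 0.73 FPKM in GCH1-KD and 7.69 ± 0.92 FPKM in negative control libraries.

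Gda, guanine deaminase, which turns guanine into xanthine and so takes it out of the salvage pool, had the smallest p of the branch (ENSMUSG00000058624.12, chr19:21391307-21473445, minus strand). It was at 5.78, 5.43 and 5.69 FPKM in GCH1-KD libraries, against 4.90, 5.25 and 4.995 FPKM in negative control libraries. All 3 GCH1-KD libraries were above all 3 negative control libraries. The log2 difference was 0.13 (SE 0.05, unadjusted p = 0.0348, adjusted p = 0.399 by limma with BH adjustment), and GCH1-KD stood at 112% of negative control.

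In the ATP branch, Adss and Adssl1 make adenylosuccinate from IMP, and both lay slightly above negative control without passing the test. Adssl1, known as the muscle isozyme, was the more abundant, at 35.6, 36.8 and 35.0 FPKM in GCH1-KD libraries, against 34.5, 32.9 and 36.1 FPKM in negative control libraries, which overlap. Adss averaged 28.38 ± 0.86 FPKM in GCH1-KD and 27.77 ± 1.68 FPKM in negative control libraries. The nucleoside diphosphate kinases Nme1 and Nme2 pass phosphate from ATP to GDP and other diphosphates. Nme2 was at 86.3, 91.5 and 73.7 FPKM in GCH1-KD libraries, against 90.0, 66.3 and 73.8 FPKM in negative control libraries. Its libraries were scattered within both groups, and its interval was the widest of the 42. Nme1 averaged 12.02 ± 0.83 FPKM in GCH1-KD and 11.66 ± 0.76 FPKM in negative control libraries. Both genes may share reads with Gm20390, an annotated readthrough transcript of the pair with 100% identity to Nme2 over 574 aligned bases and 99.8% to Nme1 over 424. Gm20390 was at 4.35, 6.22 and 4.13 FPKM in GCH1-KD libraries and 2.97, 5.89 and 1.33 FPKM in negative control libraries, so the split of reads between the 3 genes is uncertain.

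Salvage and breakdown held 5 genes, of which 0 passed the test, with 4 above and 1 below negative control and a median log2 difference of 0.05. Hprt, which rebuilds IMP and GMP from hypoxanthine and guanine, was the most abundant, at 79.0, 79.3 and 80.8 FPKM in GCH1-KD libraries, against 73.7, 80.5 and 69.0 FPKM in negative control libraries. The GCH1-KD libraries were tightly grouped, and negative control library 2 lay among them. Pnp, purine nucleoside phosphorylase, had the largest log2 difference of the group, at 8.76, 8.42 and 8.03 FPKM in GCH1-KD libraries, against 6.99, 7.25 and 8.24 FPKM in negative control libraries. Negative control library 3 lay above GCH1-KD library 3, and the log2 difference was 0.15 (SE 0.07, adjusted p = 0.470 by limma with BH adjustment). Pnp is 97.2% identical over 1084 bases to its neighbour Pnp2, whose mean was 3.42 FPKM in GCH1-KD and 3.39 FPKM in negative control libraries, so reads of the 2 may be split between them. Aprt, the adenine counterpart of Hprt, averaged 58.95 ± 3.28 FPKM in GCH1-KD and 59.73 ± 1.65 FPKM in negative control libraries. Ada, adenosine deaminase, averaged 2.80 ± 0.38 FPKM in GCH1-KD and 2.67 ± 0.37 FPKM in negative control libraries. Xdh, xanthine dehydrogenase, which makes uric acid, averaged 29.58 ± 2.01 FPKM in GCH1-KD and 28.86 ± 0.29 FPKM in negative control libraries. For these 3 the means lay closer together than the larger of the 2 SDs.

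Pyrimidine synthesis held 2 of the 4 genes that stood apart below negative control, Cad and Dhodh. Among all genes 8.36% did so, and whether this small group differs from that share was not tested. Of the 5 genes of the path 0 passed the test, 1 lay above and 4 below negative control, and the median log2 difference was -0.05. Cad, the protein that carries the first steps of the path from glutamine (ENSMUSG00000013629.16, chr5:31054780-31078479, plus strand), was at 10.81, 11.49 and 11.84 FPKM in GCH1-KD libraries, against 12.61, 12.41 and 12.47 FPKM in negative control libraries. All 3 GCH1-KD libraries were below the tightly grouped negative control libraries, and GCH1-KD stood at 91.1% of negative control. Its log2 difference was -0.13 (SE 0.05, unadjusted p = 0.0288, adjusted p = 0.387 by limma with BH adjustment). Dhodh, the mitochondrial dihydroorotate dehydrogenase of the following step (ENSMUSG00000031730.18, chr8:109591343-109608673, minus strand), was at 2.16, 2.33 and 2.33 FPKM in GCH1-KD libraries, against 2.68, 2.51 and 2.52 FPKM in negative control libraries. These groups were apart too, at 88.5% of negative control, with a log2 difference of -0.12 (SE 0.06, adjusted p = 0.471). Umps, which finishes uridine monophosphate, was the most abundant of the path, at 11.2, 13.5 and 12.5 FPKM in GCH1-KD libraries, against 12.2, 13.1 and 13.1 FPKM in negative control libraries, and its groups overlapped. The CTP synthases Ctps and Ctps2 had log2 differences of 0.03 (SE 0.07) and -0.01 (SE 0.04). Their ratio, Ctps2 to Ctps, was 1.09 ± 0.04 in GCH1-KD and 1.13 ± 0.11 in negative control libraries.

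**Figure D3:**
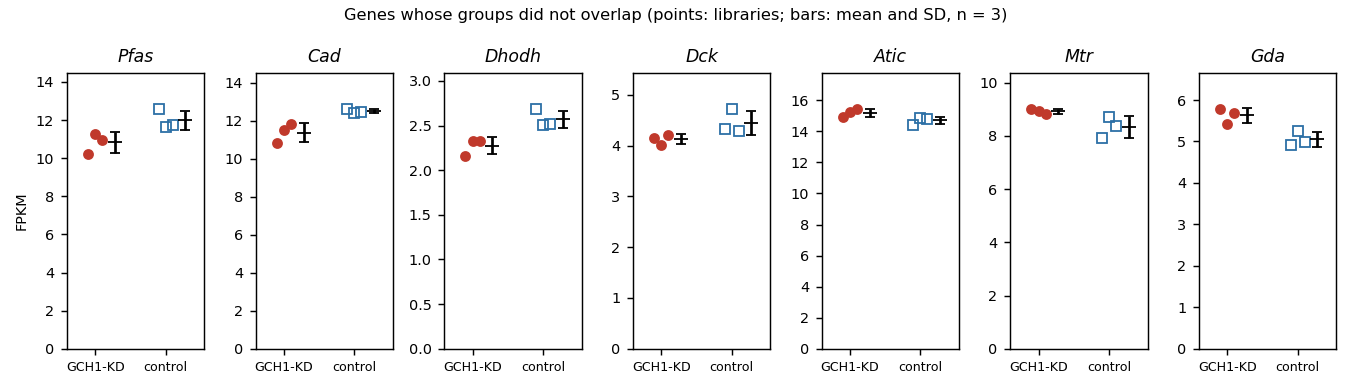
FPKM in each library for the 7 genes whose groups did not overlap, GCH1-KD (filled circles) left of negative control (open squares), with bars for mean and SD over 3 libraries and axes from 0. The 4 genes lower in GCH1-KD (Pfas, Cad, Dhodh, Dck) stood at 88.5% to 92.7% of negative control and the 3 higher ones (Atic, Mtr, Gda) at 103% to 112%.

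The genes that supply deoxynucleotides all had a lower mean in GCH1-KD, a pattern that depended on which libraries were kept. Of these 5 genes 0 passed the test, and the median log2 difference was -0.04. Rrm2, the small subunit of ribonucleotide reductase, was at 10.5, 12.3 and 10.7 FPKM in GCH1-KD libraries, against 10.9, 12.3 and 10.9 FPKM in negative control libraries. Library 2 was the highest of both groups, and the groups overlapped. Rrm1, the large subunit, averaged 10.54 ± 0.88 FPKM in GCH1-KD and 10.84 ± 0.61 FPKM in negative control libraries, and the ratio of Rrm2 to Rrm1 was 1.06 ± 0.03 in GCH1-KD and 1.05 ± 0.03 in negative control libraries. Tyms, thymidylate synthase, averaged 2.69 ± 0.23 FPKM in GCH1-KD and 2.70 ± 0.05 FPKM in negative control libraries. Tk1, thymidine kinase of dividing cells, averaged 4.82 ± 0.58 FPKM in GCH1-KD and 5.05 ± 0.46 FPKM in negative control libraries. Dck, deoxycytidine kinase (ENSMUSG00000029366.10, chr5:88764996-88783281, plus strand), was the gene of this group whose libraries stood apart, at 4.16, 4.01 and 4.20 FPKM in GCH1-KD libraries, against 4.34, 4.72 and 4.29 FPKM in negative control libraries. Its lowest negative control library lay just above its highest GCH1-KD library, and the log2 difference was -0.09 (SE 0.05, adjusted p = 0.563 by limma with BH adjustment).

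GCH1-KD library 1 was the lowest of the 6 libraries for 3 of the 5 deoxynucleotide genes and for 18 of 23 S-phase genes outside the 42, a list that holds Mcm2 to Mcm7, subunits of the replicative helicase, and Pcna. That list also holds Mki67, which marks dividing cells rather than S phase alone. GCH1-KD library 1 was also the lowest for 16 of the 42 genes, or 38.1%, beside 16.3% of all genes. The 23 S-phase genes, chosen with earlier results of these data known, had 0 passing the test, 20 below negative control and a median log2 difference of -0.07. Without GCH1-KD library 1 that median was -0.01, with 13 below. The deoxynucleotide median was then 0.01, with Dck alone of the 5 below negative control, and over the 42 genes 8 lay below, against 19 with all libraries. Negative control library 2 was the highest of the 6 for 4 of the 5 deoxynucleotide genes. Without it their median was 0.00, with 3 of 5 below negative control, and 14 of the 23 S-phase genes lay below at a median of -0.04. Leaving out GCH1-KD library 3 or negative control library 3 put 4 of the 5 below, and leaving out library 2 of GCH1-KD or library 1 of negative control all 5. Dck was below in every such fit, at a log2 difference of -0.11 to -0.05. In such bulk RNA, fewer cells of a kind, here cells in S phase, and less RNA per cell cannot be told apart.

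**Figure D4:**
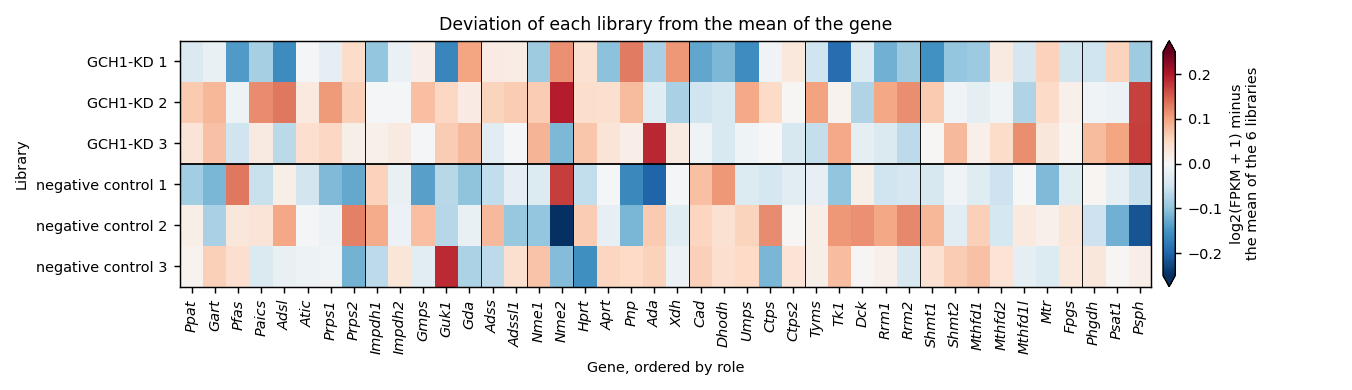
Deviation of each library from the mean of its gene on the log2(FPKM + 1) scale, for the 42 genes ordered by role, with the 3 GCH1-KD libraries above the 3 negative control libraries, red for higher and blue for lower. GCH1-KD library 1 is the lowest of the 6 for 16 genes, and negative control library 1 for 12.

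The folate cycle genes were spread on both sides of negative control. Of 7 genes 0 passed the test, 2 lay above and 5 below, and the median log2 difference was -0.02. Shmt2, the mitochondrial enzyme that takes the single-carbon unit from serine, was the most abundant, at 57.7, 61.4 and 65.4 FPKM in GCH1-KD libraries, against 61.4, 60.6 and 64.6 FPKM in negative control libraries. The groups overlapped, with both extremes in GCH1-KD. Shmt1, its cytosolic counterpart, averaged 10.31 ± 0.86 FPKM in GCH1-KD and 10.73 ± 0.50 FPKM in negative control libraries, and the ratio of Shmt2 to Shmt1 was 5.98 ± 0.37 in GCH1-KD and 5.81 ± 0.33 in negative control libraries. Mthfd2 oxidises methylene-tetrahydrofolate in mitochondria and averaged 27.48 ± 0.54 FPKM in GCH1-KD and 26.69 ± 0.90 FPKM in negative control libraries. Mthfd1l, which releases formate there, averaged 14.24 ± 1.10 FPKM in GCH1-KD and 14.23 ± 0.25 FPKM in negative control libraries. Mthfd1, the cytosolic enzyme that takes formate up again, averaged 22.69 ± 0.85 FPKM in GCH1-KD and 23.85 ± 0.95 FPKM in negative control libraries, with an adjusted p of 0.597 by limma. Fpgs, which adds the glutamate tail that keeps folate in the cell, averaged 5.80 ± 0.15 FPKM in GCH1-KD and 5.88 ± 0.16 FPKM in negative control libraries.

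Mtr, methionine synthase, which links the folate cycle to methionine through vitamin B12 (ENSMUSG00000021311.9, chr13:12182712-12258113, minus strand), was the folate gene whose groups stood apart. It was at 9.01, 8.94 and 8.81 FPKM in GCH1-KD libraries, against 7.91, 8.70 and 8.39 FPKM in negative control libraries. The GCH1-KD libraries were tightly grouped just above negative control library 2, and the log2 difference was 0.09 (SE 0.05, adjusted p = 0.525 by limma with BH adjustment).

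Serine synthesis feeds the cycle and held the most abundant of the 42, Phgdh, and a gene near the lower end, Psph. All 3 of its genes lay above negative control, 0 passed the test, and the median log2 difference was 0.09. Phgdh was at 145.4, 149.7 and 159.1 FPKM in GCH1-KD libraries, against 151.1, 145.2 and 153.6 FPKM in negative control libraries, and the groups overlapped, with GCH1-KD library 3 the highest of the 6. Psat1, the transaminase of the path, averaged 43.01 ± 1.74 FPKM in GCH1-KD and 40.24 ± 1.81 FPKM in negative control libraries, with an adjusted p of 0.508 by limma. Psph, the phosphatase of the last step, had the largest fold difference of the 42, at 3.81, 4.75 and 4.76 FPKM in GCH1-KD libraries, against 3.92, 3.40 and 4.17 FPKM in negative control libraries. Its GCH1-KD library 1 lay below 2 of the negative control libraries, and the log2 difference of 0.17 (SE 0.09) had an adjusted p of 0.529.

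The balance between paired enzymes was compared in 9 ratios of FPKM, the 4 above and those of Prps1 to Prps2, Adssl1 to Adss, Nme2 to Nme1, Paics to Ppat and Mthfd1 to Mthfd1l. The groups overlapped in all 9. Exact two-sided permutation tests gave p from 0.4 to 1 and BH adjusted values of 1, where 0.1 is the smallest p that 3 against 3 allow. Paics and Ppat are divergent neighbours whose annotated transcripts overlap by 272 bases on opposite strands, and their ratio was 4.32 ± 0.15 in GCH1-KD and 4.34 ± 0.13 in negative control libraries. Mthfd1 to Mthfd1l, the ratio with the smallest p, was 1.60 ± 0.09 in GCH1-KD and 1.68 ± 0.08 in negative control libraries.

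The fold differences varied with base composition in these libraries. Across the 12198 genes with a transcript sequence, Spearman's rho between the GC content of the transcript and the log2 difference was -0.30, and across the 42 genes it was -0.34, given as a description since genes share libraries and are not replicates. The 4 genes that stood apart below negative control had a median GC content of 52.0%, and the 3 above it 46.0%, beside 49.6% for all 42. Gene by gene this did not hold: Dck, below negative control, was at 42.9%, and Atic, above it, at 50.2%. The trend of GC content and length was then taken out of each library and the fit repeated. Cad was then at a log2 difference of -0.06 with its groups still apart, Pfas at -0.09 with groups that overlapped, and Gda at 0.12 with groups still apart. Dhodh was at -0.11, Dck at -0.11, Mtr at 0.10 and Atic at 0.05, all with groups still apart. The differences of Cad, Pfas, Gda and Dhodh thus became smaller than in the main fit, and those of Dck, Mtr and Atic larger. In that fit 0 of 42 passed, the lowest adjusted p was 0.369, for Gda, and 7 of 42 stood apart, Phgdh in place of Pfas, or 16.7%, beside 19.2% of all genes.

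Promoter sequence is shown for the 5 genes that stood apart and have an entry in the RefSeq promoter table of GRCm38.p6, so that what they share or lack can be read directly. Each line runs 5′ to 3′ on the gene's own strand, from 250 bases before the transcription start to 50 after it. Capitals mark the E-box CACGTG, the CCAAT box (CCAAT or ATTGG) and the GC box (GGGCGG or CCGCCC), searched on both strands. The regions are chr5:31054530-31054829 on the plus strand for Cad, chr5:88764763-88765062 on the plus strand for Dck, chr19:21472612-21472911 on the minus strand for Gda, chr13:12258064-12258363 on the minus strand for Mtr and chr1:71556906-71557205 on the plus strand for Atic.
Cad: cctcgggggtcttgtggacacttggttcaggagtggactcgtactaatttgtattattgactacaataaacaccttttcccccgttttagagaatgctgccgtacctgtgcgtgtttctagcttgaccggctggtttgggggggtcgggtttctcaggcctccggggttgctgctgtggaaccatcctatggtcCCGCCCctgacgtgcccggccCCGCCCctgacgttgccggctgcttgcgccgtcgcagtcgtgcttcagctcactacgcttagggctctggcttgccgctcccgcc
Dck: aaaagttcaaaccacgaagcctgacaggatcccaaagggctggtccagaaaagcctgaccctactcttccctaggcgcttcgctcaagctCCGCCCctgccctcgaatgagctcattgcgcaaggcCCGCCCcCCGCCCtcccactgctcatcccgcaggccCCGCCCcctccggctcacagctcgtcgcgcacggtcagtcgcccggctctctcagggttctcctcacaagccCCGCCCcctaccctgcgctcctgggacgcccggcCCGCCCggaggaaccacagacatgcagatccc
Gda: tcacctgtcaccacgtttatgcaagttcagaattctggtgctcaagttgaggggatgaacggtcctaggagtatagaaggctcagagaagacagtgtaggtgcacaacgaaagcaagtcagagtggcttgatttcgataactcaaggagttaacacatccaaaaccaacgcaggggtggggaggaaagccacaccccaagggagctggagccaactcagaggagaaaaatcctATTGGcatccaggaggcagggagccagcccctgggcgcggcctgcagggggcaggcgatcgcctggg
Mtr: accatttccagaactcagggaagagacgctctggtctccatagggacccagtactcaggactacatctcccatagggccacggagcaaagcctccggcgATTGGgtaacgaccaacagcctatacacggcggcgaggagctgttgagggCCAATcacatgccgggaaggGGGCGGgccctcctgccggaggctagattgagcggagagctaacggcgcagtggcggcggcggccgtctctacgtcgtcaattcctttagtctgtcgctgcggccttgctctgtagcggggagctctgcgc
Atic: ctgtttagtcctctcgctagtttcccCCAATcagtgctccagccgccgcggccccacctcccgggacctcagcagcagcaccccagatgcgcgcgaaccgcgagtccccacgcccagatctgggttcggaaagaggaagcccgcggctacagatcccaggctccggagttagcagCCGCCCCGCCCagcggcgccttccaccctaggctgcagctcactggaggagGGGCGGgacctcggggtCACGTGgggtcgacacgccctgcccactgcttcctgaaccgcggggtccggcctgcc

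Cad and Dck, both lower in GCH1-KD, hold GC boxes alone of the 3 motifs, 2 in Cad and 6 in Dck. Gda, Mtr and Atic, all higher, each hold at least 1 CCAAT box, 2 in Mtr, and Atic holds the E-box of the set just downstream of its last GC box. These 5 were picked because their groups stood apart, and the contrast does not carry over to the other genes. A CCAAT box also stands in Rrm1, Rrm2 and Shmt1, below negative control, and is missing from Hprt, Adss and Gmps, above it. Whether a motif goes with direction was not tested. Of the 42 genes 39 matched the table; Pfas, Xdh and Dhodh did not. Of the 39, 31 (79.5%) hold a GC box, beside 38.2% of the 27025 genes in the table and 69.0% of the 8738 of them that were tested here. A CCAAT box stands in 20 (51.3%), beside 41.1% of all and 43.3% of tested genes. An E-box stands in 5 (12.8%), Atic, Impdh2, Nme1, Paics and Tyms, beside 8.09% of all and 12.3% of tested genes. A match is a run of letters, not a measured binding site.

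Other genes of these pathways were read from lists chosen with earlier results of these data known. Among 29 measured of 32 other purine enzymes, 0 were called higher and 1 lower, Gch1 itself, described above. The second smallest p of that list belonged to Mocs1, which also consumes GTP, in the first step of molybdenum cofactor synthesis. Mocs1 was at 3.82, 3.63 and 4.26 FPKM in GCH1-KD libraries, against 5.80, 5.63 and 5.86 FPKM in negative control libraries. The groups stood well apart, and the log2 difference was -0.47 (SE 0.06, 95% interval -0.61 to -0.32, unadjusted p = 0.000123), with an adjusted p of 0.107 by limma with BH adjustment, which misses the threshold of 0.05. Over 15 alternative settings the difference lay between -0.55 and -0.43 and the adjusted p between 0.083 and 0.337. The third, Nt5c2, a cytosolic nucleotidase of IMP and GMP, had a log2 difference of 0.12 (SE 0.05, adjusted p = 0.433). The median of the list was 0.00, beside 0.01 for all genes.

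Of the other folate and vitamin B12 genes, 18 of 23 were measured and 0 were called, with a median log2 difference of 0.01. Aldh1l2, the mitochondrial enzyme that oxidises formyl-tetrahydrofolate to carbon dioxide, was at 11.80, 10.75 and 11.85 FPKM in GCH1-KD libraries, against 9.46, 9.45 and 9.51 FPKM in negative control libraries. The groups did not overlap, and the log2 difference was 0.25 (SE 0.05, adjusted p = 0.240), between 0.23 and 0.29 over 16 alternative settings with adjusted p from 0.162 to 0.478. Dld, a subunit of the glycine cleavage system, was at 0.13 (SE 0.06, adjusted p = 0.466) and Slc25a32, the mitochondrial folate carrier, at 0.11 (SE 0.07, adjusted p = 0.541). The other pyrimidine and deoxynucleotide enzymes, 15 of 19 measured, had 0 called and a median of 0.02, and the smallest p was that of Uprt at -0.15 (adjusted p = 0.480), before Uck1 at 0.07 and Dtymk at 0.11.

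The methionine cycle and serine handling list had 12 of 16 genes measured, 0 called and a median log2 difference of 0.01. Its smallest p values were those of Ahcyl2 at -0.35 (SE 0.18, adjusted p = 0.495), Ahcy at -0.10 (adjusted p = 0.503), the hydrolase of S-adenosylhomocysteine, and Mat2a at 0.13 (adjusted p = 0.582), which makes S-adenosylmethionine. The value of Ahcyl2 leans on negative control library 3, at 5.433 FPKM. Negative control libraries 1 and 2 were at 2.865 and 3.274 FPKM, and GCH1-KD libraries at 2.675 to 2.740 FPKM. Nucleoside transporters had 4 of 8 measured, 0 called and a median of 0.01, with Slc29a3 at 0.13 (adjusted p = 0.414), Slc43a3 at -0.16 (adjusted p = 0.495) and Slc29a1 at 0.02. In the S-phase list E2f1 was at -0.14 (adjusted p = 0.433), Cdt1 at -0.12 and Mki67, a marker of dividing cells in general, at -0.18. Phgdh, Psat1, Psph, Shmt2 and Mthfd2 are known targets of the stress factor ATF4. A further list held 17 genes, Atf4 itself and other targets, of which 16 were measured and 0 called. Of these 11, Atf4 among them, lay above and 5 below negative control, beside 53.0% of all genes above. The median was 0.02. The smallest p of that list belonged to Cebpb at -0.18 (SE 0.04, adjusted p = 0.291), before Slc7a11, the cystine carrier, at 0.15 (adjusted p = 0.466) and Atf5 at 0.09 (adjusted p = 0.497).

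How reads were divided bears on some of the 42. The annotation places 13 of them over another gene with a row, 5 on the same strand and 8 on the opposite one, and the strand setting of the counting is not given in the sources used here. Besides the Nme pair and Pnp, Prps1 is 92.8% identical over 1500 bases to Prps1l3, which was at a mean of 23.75 FPKM in GCH1-KD and 22.49 FPKM in negative control libraries. Tk1 lies opposite Gm20708, which ranged from 0.21 to 2.31 FPKM in GCH1-KD and from 2.42 to 2.68 FPKM in negative control libraries. Psph overlaps by 452 bases, on the opposite strand, the far more abundant Cct6a, at 54.6 to 56.3 FPKM in GCH1-KD and 52.3 to 53.5 FPKM in negative control libraries. Mthfd2 shares 2799 bases on the same strand with Gm43890, at 1.70 to 2.22 FPKM in GCH1-KD and 1.04 to 1.33 FPKM in negative control libraries. The values of Nme1, Nme2, Pnp, Prps1, Tk1, Psph and Mthfd2 are therefore less certain than their intervals show.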

How the data were processed

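Per the labels' protocols, TRIzol RNA was cleared of ribosomal RNA with Ribo-Zero and libraries were prepared with a stranded KAPA kit. StringTie, HISAT2 and edgeR are listed without roles per the submitters' processing notes, beside the build hg38, although every identifier is a mouse gene. Neither annotation nor strand setting is given in the sources used here. The deposited table states no unit; its values behave as FPKM computed by the authors, not whole and with the value times transcript length falling on whole multiples of a step. The step was read from 898 to 970 genes a library, where 71.9% to 75.2% of the values fell no farther than 0.1 from a whole step (20% by chance), and it gave the depth estimates; no library's exact depth is known.

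Identifiers without version matched GENCODE M21 for 12306 of 12327 genes (10910 with version, 36 of the 42). Every gene in the table reached 0.501 FPKM in the mean of its higher group, so weaker genes were not analysed here. Genes that reached 0.5 FPKM in 3 or more of the 6 libraries entered a limma fit (version 3.58.1, R 4.3.3) on log2(FPKM + 1), with empirical Bayes moderation, a mean-variance trend and no covariate. Benjamini-Hochberg adjustment ran over all 12222 genes, and an adjusted p under 0.05 was called. The script was tested on simulated data. The genotype label gave the group and the title the number of each library. The members and lists were chosen with earlier results of these data known. All 42 are named; values per library are given for those whose groups did not overlap, those with an unadjusted p under 0.05 and the most abundant of each role, and, after their values were seen, for Pnp and Psph. Up to 3 genes of smallest p are named per list. The microglial marker list is reported only in part. Values per library of Mocs1 and Aldh1l2 were also added after they were seen.

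Alternatives were a replicate block, each library left out, a mean of 5 FPKM or more, no filter, quantile normalization, median-of-ratios scaling, a pseudocount of 0.5 or 0.1, no trend, robust moderation, and removal of the GC and length trend with a loess span of 0.3. Similar transcripts were compared with blastn. Other calculations used Python 3.11.15, numpy 2.4.6, pandas 2.3.3 and scipy 1.17.1.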

Additional observations from a re-analysis of the deposited data

How the results depend on the processing

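In all 16 alternatives 0 of the 42 genes passed the limma test. The lowest adjusted p was 0.274, for Prps2 at a log2 difference of 0.16 without negative control library 2. Of 666 values, 39 changed sign, in 19 genes, none of them called, and 23 genes kept their sign. Under the settings that kept all libraries and all 42 genes, 6 or 7 of the 42 stood apart, beside 18.4% to 19.2% of all genes. At a mean of 5 FPKM or more only 36 of the 42 were tested, and 5 of these stood apart, beside 18.5% of all genes. With each library left out in turn it was 9 to 13, beside 27.0% to 34.0% of all genes, since fewer libraries part more easily. The median log2 difference of the 42 was then 0.00 to 0.03. Genes called among all tested were 6 to 18 with a library left out, 6 without GCH1-KD library 2 or 3 and 18 without negative control library 2, and the cause was not tested. Gch1 was then at -0.999 to -0.911.

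In the fit with a replicate block, 0 genes were called by limma (1330 had an unadjusted p under 0.05, 1 of them among the 42), and Gch1 had a log2 difference of -0.96 with an adjusted p of 0.0604, beside 0.00281 to 0.0604 over all alternatives. The block leaves fewer residual degrees of freedom. The numbers were not taken to pair the libraries. Deviations of same-numbered libraries correlated at 0.09, 0.06 and 0.09 across genes, though the best match of each library was the one that bears its number, which is a hint in the values rather than a stated design.

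With 3 libraries a group and no counts, changes within the intervals given above cannot be seen, and a difference of RNA does not measure enzyme, GTP or folate levels.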
